A study of Mus musculus with 24 samples.

Results

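Potassium channels are membrane proteins that let potassium leave or enter the cell and so set its resting voltage and its calcium entry. The genes described here are the mouse potassium channel genes that carry a symbol of the Kcn series, 86 of the 18820 genes measured, taken by symbol alone with the brightest probeset kept for each gene. They cover the subunits of the voltage-gated channels (Kcna, Kcnb, Kcnc, Kcnd, Kcnf, Kcng, Kcnh, Kcnq, Kcns and Kcnv), the inward rectifiers (Kcnj) and the 2-pore background channels (Kcnk). They also cover the calcium-activated and sodium-activated channels (Kcnma, Kcnn and Kcnt), the related Kcnu and the auxiliary subunits (Kcnab, Kcne, Kcnip and Kcnmb). The largest families were Kcnj with 15 genes, Kcnk with 14, Kcna with 8 and Kcnh with 7. The rule reads symbols, and a measured level only to keep 1 probeset a gene. Potassium channel genes named outside this series of symbols were not analysed here.

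The study set microglia-like cells made from induced pluripotent stem cells beside microglia and other cells of the mouse. RNA of 8 cell types, 3 arrays each, was hybridised to Affymetrix mouse gene arrays. The induced pluripotent stem cells (iPSC), the GFP+ microglia derived from them (iPS-MG), microglia of P5 mice (neo-MG) and microglia of adult mice (ad-MG) carried the genotype C57BL/6NCr - Cx3cr1gfp/+, in which green fluorescent protein marks cells using the fractalkine receptor gene. Adult C57BL/6NCr mice gave the peritoneal macrophages (p-Mac), the macrophages of bone marrow (bm-Mac) and the dendritic cells (DC), and C57BL/6NCr embryos of E15-E18 the neural stem cells (NSC). The iPSC and iPS-MG are also labelled adult. The iPSC grew on a feeder layer of mouse embryonic fibroblasts with leukemia inhibitory factor. Cells called gMG, a name the labels do not tie to a group, were given IL-3 together with the colony-stimulating factors GM-CSF and M-CSF, and the remaining cells were kept in serum-containing medium without these factors. Whether the 3 arrays of a group came from separate mice or cultures is not stated, so the p-values below measure the spread between arrays, which may be technical.

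In microglia and macrophages the channels known best are Kir2.1 (Kcnj2), an inward rectifier that holds the membrane at a negative voltage, and THIK-1 (Kcnk13), a 2-pore channel that carries the resting potassium current of microglia in brain tissue. Kv1.3 (Kcna3), a voltage-gated channel, and KCa3.1 (Kcnn4), opened by intracellular calcium, are the channels usually linked to activated microglia, to macrophages and to lymphocytes. Potassium leaving the cell is also a trigger of the NLRP3 inflammasome, the complex that matures interleukin 1 beta.

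Defining markers were checked first. A list of 10 pan-myeloid genes averaged 12.07 to 12.77 (log2) in the 6 myeloid groups, 8.07 in iPSC and 7.19 in NSC, and 7 pluripotency genes averaged 12.30 in iPSC and 6.50 to 6.88 elsewhere. Of 10 microglia genes the 9 measured averaged 11.07 in ad-MG, 10.50 in iPS-MG and 10.46 in neo-MG, and 7.79 to 9.29 elsewhere. Other cell types were also visible. The 7 fibroblast genes averaged 11.45 in ad-MG (11.40 to 11.55 over its arrays) and 9.0 in iPSC, against 7.22 to 8.20 in the other groups, and 6 mast cell and granulocyte genes averaged 9.69 in bm-Mac, 7.75 in p-Mac and 6.44 to 6.94 elsewhere. Of 4 T and B cell genes the 2 measured averaged 8.35 in p-Mac and 6.79 to 7.36 elsewhere. The 8 dendritic cell genes averaged 9.85 in DC, 9.70 in bm-Mac and 9.45 in p-Mac. Between DC and bm-Mac, 3 of the 8 were at least 2-fold higher in DC at limma's adjusted p under 0.05 (background 3.41%). By the same rule 2 were lower (background 4.67%). In DC, Itgax (13.19), H2-Aa (11.29), Ccr7 (10.28) and Clec9a (10.20) lay above their iPSC levels of 6.82, 5.75, 8.37 and 5.68, while Flt3 (7.07) and Xcr1 (7.09) lay near theirs of 6.91 and 6.88. The 7 neural progenitor genes averaged 11.50 in NSC and 8.65 to 9.61 elsewhere, and 4 oligodendrocyte lineage genes 10.24 in NSC and 7.36 to 8.48 elsewhere. The 6 neuronal genes averaged 8.32 in NSC and 8.29 in iPSC, with Map2 at 12.20 in NSC and Stmn2 at 7.04, against 8.48 and 12.19 in iPSC.

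Most potassium channel genes showed little difference between the cell types. A gene was called different when limma's F test over the 8 groups passed an adjusted p of 0.05 (Benjamini-Hochberg over 18820 genes) and its highest and lowest group means lay at least 1 log2 unit, a 2-fold change, apart. By that rule 24 of the 86 genes were called, 27.9%, against a background of 47.2% of all genes. Most of them were dim: 76 had a mean level below the median of all genes, of which 18 were called (23.7%, against 28.4% of all genes below it), and 6 of the 10 above it were called (60%, against 65.9%). The median distance between the highest and lowest group mean was 0.57 log2 units for the channel genes and 0.92 for all genes. With the adjusted p alone, 82 of the 86 passed, against 96.0% of all genes, so the size of the change and not the test set the count. Distances of at least 2 log2 units were found for 16 channel genes (18.6%, background 21.3%) and of at least 3 for 8 (9.3%, background 10.3%).

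Among the 24 called genes, the highest group mean fell in NSC for 8, in bm-Mac for 6, in iPSC for 5, in DC for 3 and in ad-MG and p-Mac for 1 each. None had its highest mean in iPS-MG or neo-MG. The same counts were not made over all called genes, so whether they are particular to the channel genes was not tested. By family, 5 of 15 Kcnj, 4 of 14 Kcnk, 3 of 4 Kcnn, 2 of 8 Kcna and 2 of 4 Kcnip genes were called, and none of the 7 Kcnh, 5 Kcne, 3 Kcnmb and 3 Kcns genes. The background for these family counts was 47.2% of all genes. The heat map orders the called genes by the group of their highest mean, so its 3 blocks follow from that order. They hold the genes highest in the pluripotent cells, in a myeloid group and in neural stem cells. Genes can also be high outside their block, as Kcnma1, highest in NSC, was in iPS-MG (mean 8.52) and neo-MG (8.60).

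**Figure D1:**
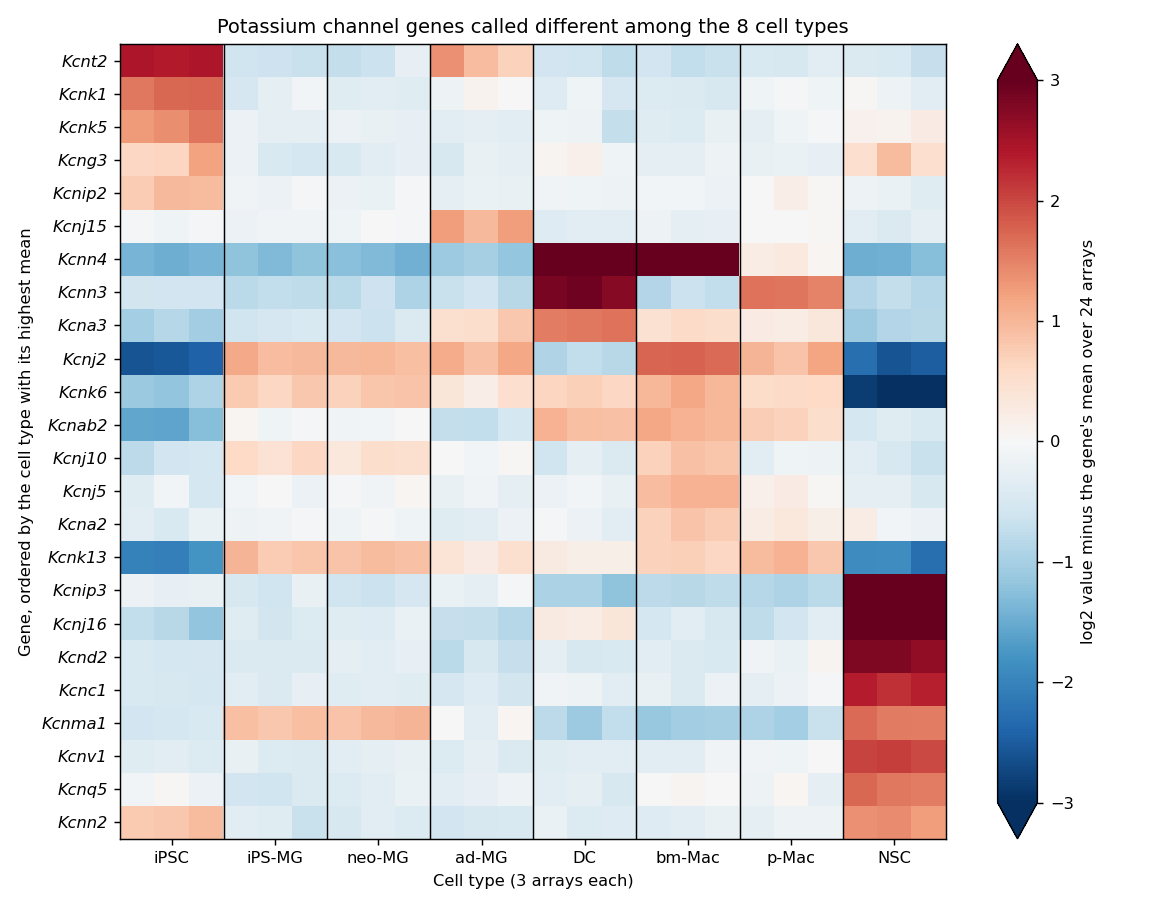
Levels of the 24 called potassium channel genes on the 24 arrays, as the log2 value minus the gene's mean over all arrays. Rows are genes ordered by the cell type with the highest mean, columns are arrays with black lines between cell types, and red is above and blue below the gene's mean, with colours saturating at 3 log2 units. The iPS-MG and neo-MG columns look alike, and Kcnn4 stands out in DC and bm-Mac.

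The inward rectifier Kcnj2 and the 2-pore channels Kcnk13 and Kcnk6 were higher in every myeloid group than in either stem cell type. Kcnj2 read 5.36, 5.39 and 5.53 on the iPSC arrays and 5.68, 5.36 and 5.48 on the NSC arrays. In microglia it read 9.07, 8.87 and 8.92 in iPS-MG, 8.92, 8.95 and 8.84 in neo-MG, and 9.06, 8.83 and 9.10 in ad-MG. The other myeloid arrays gave 9.69, 9.71 and 9.65 in bm-Mac, 8.97, 8.79 and 9.12 in p-Mac, and 7.04, 7.22 and 7.11 in DC. The 3 microglial groups and p-Mac overlapped, bm-Mac lay above every other array, and DC lay between the other myeloid groups and the stem cells. In iPS-MG Kcnj2 was 3.53 ± 0.088 log2 units (SE) above iPSC, an 11.5-fold difference (limma, Benjamini-Hochberg adjusted p = 3.87e-22). DC against bm-Mac gave -2.56 ± 0.088, 5.89-fold lower (limma, adjusted p = 1.77e-18). In the order bm-Mac, ad-MG, p-Mac, iPS-MG, neo-MG, DC, NSC, iPSC the neighbours differed between bm-Mac and ad-MG (0.68, limma adjusted p = 2.68e-07), between neo-MG and DC (1.78, limma adjusted p = 3.01e-15) and between DC and NSC (1.62, limma adjusted p = 6.69e-15). The other neighbours did not differ beyond their spread.

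Kcnk13, the THIK-1 gene, followed a like pattern, with DC again the lowest myeloid group. It read 7.12, 7.10 and 7.35 in iPSC and 7.25, 7.29 and 6.90 in NSC. The microglial arrays gave 10.17, 9.90 and 9.97 in iPS-MG, 9.99, 10.09 and 10.03 in neo-MG, and 9.55, 9.41 and 9.63 in ad-MG. The remaining myeloid arrays gave 9.43, 9.32 and 9.32 in DC, 9.84, 9.86 and 9.78 in bm-Mac, and 10.10, 10.19 and 9.95 in p-Mac. All 18 myeloid arrays lay above all 6 stem cell arrays. The difference was 2.83 ± 0.093 for iPS-MG over iPSC, 7.09-fold (limma, Benjamini-Hochberg adjusted p = 1.43e-19), and 2.66 ± 0.071 for the mean of the 6 myeloid groups over NSC, 6.33-fold (limma, adjusted p = 9.09e-22). Between neo-MG and ad-MG together and the mean of bm-Mac, p-Mac and DC the difference was 0.03 (95% interval -0.10 to 0.15, limma adjusted p = 0.681), which did not pass. Both sides of it average unequal groups. The means were 10.04 in neo-MG and 9.53 in ad-MG, whose arrays did not overlap, against 10.08 in p-Mac, 9.83 in bm-Mac and 9.36 in DC. Down the order p-Mac, neo-MG, iPS-MG, bm-Mac, ad-MG, DC, iPSC, NSC, the steps that passed were bm-Mac to ad-MG (0.30, limma adjusted p = 0.0083) and DC to iPSC (2.17, limma adjusted p = 3.84e-17).

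Kcnk6 encodes TWIK-2, a 2-pore channel described in macrophages as a route of potassium efflux ahead of NLRP3 activation. Its values were 9.50, 9.45 and 9.71 in iPSC and 7.77, 7.56 and 7.25 in NSC. Microglial arrays gave 11.40, 11.24 and 11.44 in iPS-MG, 11.30, 11.46 and 11.48 in neo-MG, and 11.00, 10.82 and 11.13 in ad-MG. The other myeloid arrays gave 11.63, 11.78 and 11.61 in bm-Mac, 11.28, 11.33 and 11.24 in DC, and 11.16, 11.20 and 11.22 in p-Mac. All myeloid arrays lay above the iPSC arrays, and those above the NSC arrays. Unlike Kcnj2 and Kcnk13, it separated the stem cells from each other, with -2.03 ± 0.099 for NSC against iPSC (limma, Benjamini-Hochberg adjusted p = 1.03e-15). The iPS-MG lay 1.81 ± 0.099 above iPSC, 3.5-fold (limma, adjusted p = 8.25e-15), and the myeloid mean 3.79 ± 0.076 above NSC, 13.9-fold (limma, adjusted p = 1.77e-24), the widest rise of a channel gene in that comparison.

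The promoters of the 4 genes with a known place in microglia and macrophages are shown because Kcnj2 and Kcnk13 moved together across the groups while Kcna3 and Kcnn4, described next, did not follow them. Each is the RefSeq window of 300 bases (250 before to 50 after the annotated start) on GRCm38.p6, plus strand: Kcnj2 at chr11:111065914-111066213, Kcnk13 at chr12:99964249-99964548, Kcna3 at chr3:107035912-107036211 and Kcnn4 at chr7:24370013-24370312. Capitals mark GAGGAA or its reverse complement TTCCTC, letters contained in the usual binding consensus of PU.1, the transcription factor of myeloid cells.
Kcnj2: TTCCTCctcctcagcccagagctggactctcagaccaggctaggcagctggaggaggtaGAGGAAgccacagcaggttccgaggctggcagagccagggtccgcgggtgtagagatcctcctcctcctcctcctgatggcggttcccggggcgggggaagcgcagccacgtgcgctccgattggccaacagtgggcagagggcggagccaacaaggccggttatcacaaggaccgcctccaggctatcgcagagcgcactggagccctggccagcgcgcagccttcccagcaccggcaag
Kcnk13: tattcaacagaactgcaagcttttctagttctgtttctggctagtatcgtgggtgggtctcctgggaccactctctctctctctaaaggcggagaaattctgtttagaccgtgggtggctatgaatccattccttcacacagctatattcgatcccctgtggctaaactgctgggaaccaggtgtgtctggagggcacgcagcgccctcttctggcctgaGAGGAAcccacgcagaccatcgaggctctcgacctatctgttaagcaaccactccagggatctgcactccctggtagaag
Kcna3: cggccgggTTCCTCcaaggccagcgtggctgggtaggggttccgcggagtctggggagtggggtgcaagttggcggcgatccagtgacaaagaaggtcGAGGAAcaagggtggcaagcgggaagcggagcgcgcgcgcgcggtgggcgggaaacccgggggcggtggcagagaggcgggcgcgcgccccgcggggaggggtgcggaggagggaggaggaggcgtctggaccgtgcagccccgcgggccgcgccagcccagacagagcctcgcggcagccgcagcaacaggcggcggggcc
Kcnn4: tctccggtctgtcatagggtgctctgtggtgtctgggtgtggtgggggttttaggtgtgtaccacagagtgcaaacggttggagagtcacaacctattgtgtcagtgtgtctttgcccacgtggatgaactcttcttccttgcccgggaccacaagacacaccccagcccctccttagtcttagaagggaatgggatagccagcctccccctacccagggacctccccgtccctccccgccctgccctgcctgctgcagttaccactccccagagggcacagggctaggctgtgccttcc
The Kcnj2 window held 2 matches, Kcnk13 1, Kcna3 2 and Kcnn4 none. The letters were common: 28.28% of 32851 windows in the table held a match on either strand, and 27 of the 91 windows of channel genes (29.67%, covering 66 genes). A second search for TGACTCA or its reverse complement TGAGTCA, letters of the AP-1 consensus, found no match in these 4 windows, against 5.2% of all windows and 2 of the 91. Neither motif contains the other. GC content was 66.7% for Kcnj2, 52.7% for Kcnk13, 75.0% for Kcna3 and 59.7% for Kcnn4, and the median of all windows was 52.7%. A match is a run of letters and not a measured binding site.

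Kcnn4, the KCa3.1 gene, split the myeloid groups more than any other channel gene. It read 12.33, 12.18 and 12.28 in DC, 12.27, 12.19 and 12.07 in bm-Mac, and 9.30, 9.37 and 9.13 in p-Mac. In microglia it read 7.87, 7.77 and 7.87 in iPS-MG, 7.83, 7.76 and 7.63 in neo-MG, and between 7.92 and 8.09 in ad-MG. The stem cell arrays gave 7.67, 7.62 and 7.67 in iPSC and 7.60, 7.64 and 7.80 in NSC. DC and bm-Mac overlapped at the top, p-Mac stood alone in the middle, and iPS-MG and neo-MG overlapped with the NSC arrays. The difference was -4.44 ± 0.074 for neo-MG against bm-Mac, 21.7-fold (limma, Benjamini-Hochberg adjusted p = 1.31e-24), and -2.91 ± 0.074 for p-Mac against bm-Mac, 7.51-fold (limma, adjusted p = 6.03e-21). DC and bm-Mac did not differ beyond their spread (0.08, 95% interval -0.07 to 0.24, limma adjusted p = 0.402). The difference for neo-MG against ad-MG was -0.26 (limma, adjusted p = 0.00527), short of 2-fold, and ad-MG against iPS-MG gave 0.17 (limma, adjusted p = 0.0726). Below ad-MG no neighbours in the order iPS-MG, neo-MG, NSC, iPSC differed. For bm-Mac, the mast cell and granulocyte genes given above were also high, and their part in the Kcnn4 level was not tested. The T and B cell genes were highest in p-Mac, and their part was not tested either. In such bulk samples, more cells of a type and more RNA per cell cannot be told apart.

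Kcna3, the Kv1.3 gene, was highest in dendritic cells and differed between adult and neonatal microglia. Its values were 10.87, 10.91 and 10.96 in DC, 9.80, 9.91 and 9.86 in bm-Mac, and 9.59, 9.57 and 9.68 in p-Mac. Among microglia it read 9.83, 9.88 and 10.15 in ad-MG, 8.78, 8.69 and 8.92 in neo-MG, and 8.74, 8.83 and 8.88 in iPS-MG. The stem cells gave 8.33, 8.49 and 8.30 in iPSC and 8.26, 8.46 and 8.52 in NSC. The ad-MG arrays overlapped with bm-Mac, and the iPS-MG and neo-MG arrays overlapped with each other and lay more than 1 log2 unit lower on average. The difference was -1.16 ± 0.081 for neo-MG against ad-MG (limma, Benjamini-Hochberg adjusted p = 6.76e-12) and -1.14 ± 0.081, 2.2-fold, for iPS-MG against ad-MG (limma, adjusted p = 1.02e-11). DC exceeded bm-Mac by 1.06 ± 0.081, 2.09-fold (limma, adjusted p = 2.47e-11). Along the order DC, ad-MG, bm-Mac, p-Mac, iPS-MG, neo-MG, NSC, iPSC, the neighbours that did not differ were ad-MG and bm-Mac (0.10, limma adjusted p = 0.313), iPS-MG and neo-MG, and NSC and iPSC. The step from iPSC to iPS-MG was 0.44 ± 0.081 (limma, adjusted p = 3.1e-05), under 2-fold. In ad-MG the fibroblast list was also high, as given above, and its part in the Kcna3 level was not tested.

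**Figure D2:**
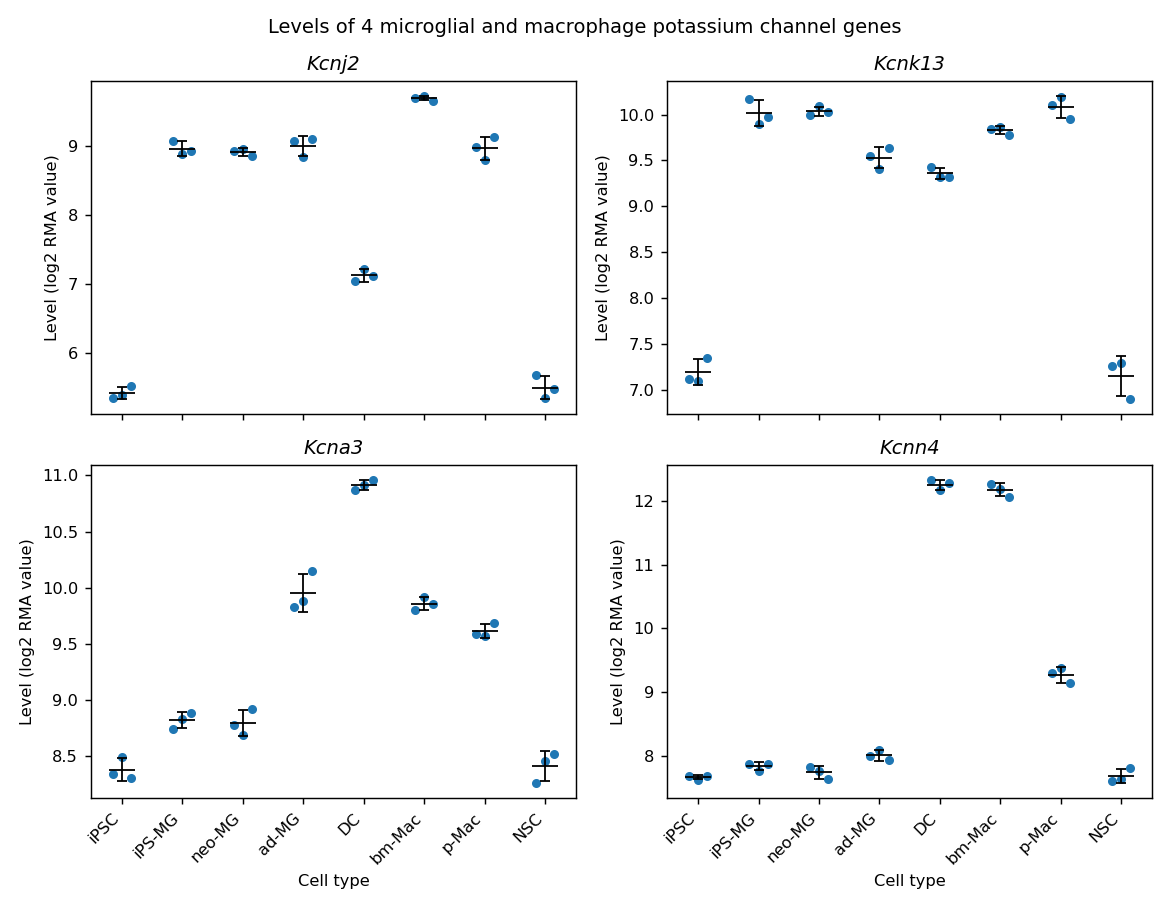
Levels of Kcnj2, Kcnk13, Kcna3 and Kcnn4 (log2 RMA value, vertical axes differ) in the 8 cell types. Dots are arrays, long bars group means and error bars the SD over 3 arrays. Kcnj2 and Kcnk13 are low in iPSC and NSC, while Kcnn4 is high in DC and bm-Mac, in between in p-Mac and low in every microglial group.

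The small-conductance channel gene Kcnn3 (SK3) was raised in DC and p-Mac. Its values were 11.17, 11.23 and 11.05 in DC and 9.97, 9.94 and 9.81 in p-Mac. The other 18 arrays lay between 7.39 and 7.78, bm-Mac included at 7.44, 7.68 and 7.58. DC exceeded bm-Mac by 3.58 ± 0.080, 12-fold (limma, Benjamini-Hochberg adjusted p = 1.81e-22), and p-Mac exceeded it by 2.34 ± 0.080, 5.06-fold (limma, adjusted p = 2.12e-18). The groups high in Kcnn3 also differed from each other, by 1.24 (limma, adjusted p = 5.47e-13). The 7 peritoneal macrophage genes averaged 10.48 in p-Mac, 8.54 in bm-Mac and 8.29 in DC. The 2 T and B cell genes measured averaged 8.35 in p-Mac, 7.31 in bm-Mac and 7.12 in DC. The part of either list in the Kcnn3 level was not tested.

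Kcnma1, the pore-forming subunit of the large-conductance BK channel, was the channel gene called higher in primary microglia than in the other myeloid cells. It read 8.55, 8.46 and 8.56 in iPS-MG, 8.50, 8.62 and 8.68 in neo-MG, and 7.65, 7.35 and 7.71 in ad-MG. The other myeloid arrays lay lower, at 6.87, 6.57 and 6.91 in DC, 6.53, 6.61 and 6.67 in bm-Mac, and 6.72, 6.65 and 6.98 in p-Mac. The stem cells gave 7.07, 7.14 and 7.20 in iPSC and the highest values of all, 9.35, 9.20 and 9.19, in NSC. Every microglial array lay above every other myeloid array, and the 2 primary microglial groups together lay 1.36 ± 0.062 above them, 2.57-fold (limma, Benjamini-Hochberg adjusted p = 4.03e-16). In the same comparison 7 of the 9 microglia genes measured were called higher (background 3.20%). Against the same background, 7 of 7 fibroblast, 3 of 6 mural cell, 1 of 5 astrocyte and 0 of 7 neural progenitor genes were called higher. The astrocyte list averaged 8.80 in ad-MG, 8.48 in iPS-MG, 8.40 in neo-MG and 7.64 to 8.16 in the other myeloid cells. Its gene Gfap read 9.02 in iPS-MG and neo-MG, 7.93 in ad-MG and 7.39 to 7.70 in the others. The list mean was highest in ad-MG, unlike Gfap. Of the 5 astrocyte genes, 1 was called higher (background 1.28%) and 1 lower (background 4.43%) in neo-MG than in ad-MG. The part of cell types other than microglia in the Kcnma1 level was not tested. Neonatal microglia exceeded adult ones by 1.03 ± 0.096 (limma, adjusted p = 1.45e-09), a difference that fell to 0.99 without neo-MG replicate 3 and to 0.92 without ad-MG replicate 2, both under the 2-fold minimum. The neo-MG level was 2.00 ± 0.096 above bm-Mac, 3.99-fold (limma, adjusted p = 3.33e-15).

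Kcnab2, a cytosolic beta subunit that binds Kv1 channels, was highest in the macrophages and DC. It read 10.59, 10.49 and 10.44 in bm-Mac, 10.48, 10.34 and 10.33 in DC, and 10.19, 10.12 and 9.97 in p-Mac. Microglia gave 9.49, 9.32 and 9.40 in iPS-MG, 9.33, 9.35 and 9.44 in neo-MG, and 8.73, 8.71 and 8.92 in ad-MG, below all arrays of the other myeloid cells. NSC read 8.91, 9.07 and 8.98 and iPSC 7.89, 7.86 and 8.16. Primary microglia against the other myeloid cells gave -1.25 ± 0.052 (limma, Benjamini-Hochberg adjusted p = 7.37e-17), and iPS-MG lay 1.43 ± 0.081 above iPSC (limma, adjusted p = 1.53e-14).

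A few further channel genes had their highest mean in 1 myeloid group. Kcnj10 (Kir4.1, best known from astrocytes) averaged 8.38 ± 0.099 (SD, n = 3) in bm-Mac, 8.13 ± 0.093 in iPS-MG and 8.03 ± 0.12 in neo-MG, and 6.96 ± 0.13 to 7.56 ± 0.057 in the other groups. Kcnj5, a subunit of G protein-gated inward rectifiers, averaged 8.40 ± 0.076 in bm-Mac and 7.04 to 7.54 elsewhere. Kcna2 (Kv1.2) averaged 9.24 ± 0.092 in bm-Mac and 8.71 ± 0.071 in p-Mac, above group means of 8.15 to 8.45 elsewhere. These 3 genes thus had their highest mean in the group that also held the mast cell and granulocyte genes, whose part was not tested. Kcnj15 (Kir4.2) read 9.03, 8.74 and 9.02 in ad-MG and 7.34 to 7.81 on all other arrays, and neo-MG against ad-MG gave -1.21 ± 0.068 (limma, Benjamini-Hochberg adjusted p = 6.26e-14).

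The block with its highest mean in neural stem cells held Kcnip3, Kcnj16, Kcnd2, Kcnc1, Kcnma1, Kcnv1, Kcnq5 and Kcnn2. Kcnip3, a calcium-binding KChIP subunit of Kv4 channels also known as calsenilin, read 12.95, 12.80 and 12.85 in NSC. On the other 21 arrays it lay between 7.57 and 8.74, the lowest being DC at 7.83, 7.84 and 7.57. The NSC mean of 12.87 ± 0.077 (SD, n = 3) exceeded the iPSC mean of 8.57 ± 0.038 by 4.30 ± 0.084, 19.6-fold (limma, Benjamini-Hochberg adjusted p = 3.78e-24), the largest change of a channel gene between these groups. Kcnj16 (Kir5.1, which pairs with Kir4.1) read 10.72, 10.52 and 10.47 in NSC and 6.27 to 7.80 elsewhere, with DC the next highest group at 7.70, 7.67 and 7.80. The NSC level was 4.04 ± 0.10 above iPSC, 16.5-fold (limma, adjusted p = 8.02e-22).

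Kcnd2, the Kv4.2 pore subunit that KChIP proteins bind, read 10.07, 10.06 and 9.94 in NSC and 6.47 to 7.35 on the other arrays. Kcnc1 (Kv3.1), a channel of fast-spiking neurons, read 9.92, 9.74 and 9.89 in NSC and 7.01 to 7.49 elsewhere. For both genes no other array came within 2 log2 units of NSC. Over iPSC the differences were 3.26 ± 0.078 for Kcnd2, 9.55-fold (limma, Benjamini-Hochberg adjusted p = 2.21e-22), and 2.78 ± 0.077 for Kcnc1, 6.85-fold (limma, adjusted p = 4.87e-21). Kcnv1, a silent subunit that modifies Kv2 channels, read 8.86, 8.90 and 8.81 in NSC and 6.40 to 6.82 elsewhere. Kcnq5, an M-current subunit, read 9.40, 9.26 and 9.20 in NSC and 7.09 to 7.76 elsewhere. Again the NSC arrays stood apart from all others, and both genes passed against iPSC, by 2.40 ± 0.066 for Kcnv1 and 1.69 ± 0.084 for Kcnq5 (limma, adjusted p = 4.66e-21 and 1.48e-15).

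For the Kv4.3 gene Kcnd3 the result depended on the probeset. The brighter probeset, which represents the gene under the rule, had group means of 8.49 to 8.89 and was not called. A second probeset that names the same gene read 11.15, 10.90 and 10.95 in NSC and 6.64 to 7.41 elsewhere, so that NSC exceeded iPSC by 4.28 ± 0.083, 19.4-fold (limma, Benjamini-Hochberg adjusted p = 3.44e-24). Over the 24 arrays the correlation between the 2 probesets was 0.04. Which transcripts each probeset reads was not analysed here. Kcnh8, the other channel gene with 2 probesets, was flat on both, with group means 0.31 and 0.58 apart at most.

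**Figure D3:**
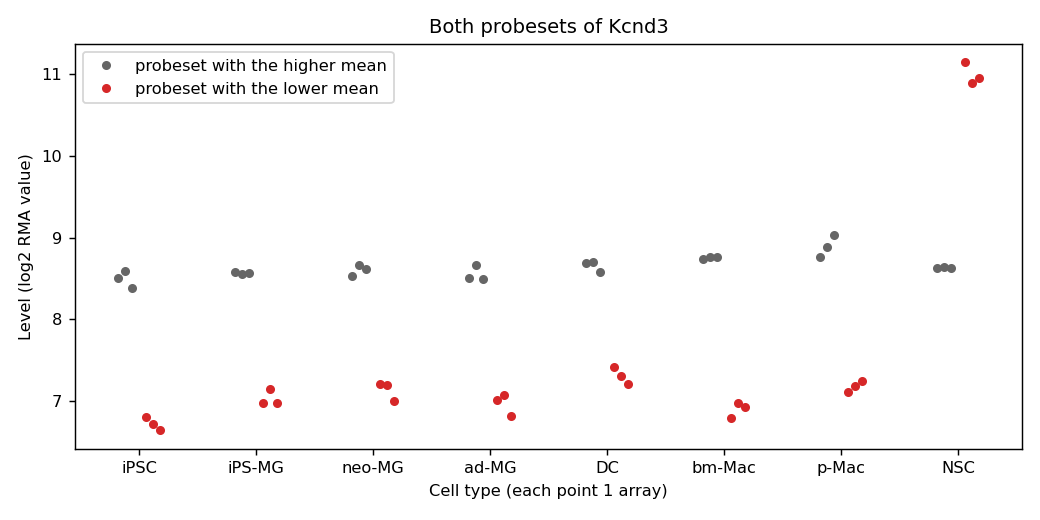
Levels of both Kcnd3 probesets (log2 RMA value) on each of the 24 arrays, by cell type, with the probeset of the higher mean in grey and that of the lower mean in red. The grey points lie near the same level in all cell types, and the red points rise to between 10.90 and 11.15 in NSC alone.

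Fewer channel genes marked the pluripotent cells. Kcnt2, the sodium-activated channel SLICK, read 8.48, 8.43 and 8.47 in iPSC and 7.42, 6.98 and 6.74 in ad-MG. On the other 18 arrays it lay between 5.30 and 5.80. From iPSC to iPS-MG it fell by 3.04 ± 0.12, 8.22-fold (limma, Benjamini-Hochberg adjusted p = 6.68e-18), and neo-MG against ad-MG gave -1.53 ± 0.12, 2.88-fold lower (limma, adjusted p = 5.75e-11). The 2 groups high in Kcnt2 were the 2 groups with the highest fibroblast and mural cell lists: the 6 mural genes averaged 9.35 in ad-MG (9.28 to 9.44), 8.62 in iPSC (8.59 to 8.64) and 7.18 to 7.78 elsewhere. Their part in the Kcnt2 level was not tested, and the iPSC were grown on fibroblasts.

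The 2-pore channel genes Kcnk1 (TWIK-1) and Kcnk5 (TASK-2) were high in iPSC alone. Kcnk1 read 9.39, 9.53 and 9.54 there and 7.30 to 7.90 elsewhere, and Kcnk5 read 8.60, 8.70 and 8.93 there and 6.60 to 7.55 elsewhere. Against iPSC, iPS-MG gave -1.98 ± 0.099 for Kcnk1 and -1.67 ± 0.11 for Kcnk5 (limma, Benjamini-Hochberg adjusted p = 1.11e-15 and 1.56e-13). The SK2 gene Kcnn2 was shared by both stem cells, at 7.70, 7.71 and 7.86 in iPSC and 8.28, 8.33 and 8.16 in NSC against 6.25 to 6.76 elsewhere. Kcng3, a silent Kv subunit, also averaged highest in iPSC (8.12 ± 0.33, SD, n = 3) and NSC (7.95 ± 0.26), with overlapping arrays, against 6.91 to 7.33 elsewhere. Kcnip2 (KChIP2) averaged 8.04 ± 0.11 in iPSC and 6.91 to 7.21 elsewhere. NSC against iPSC gave -1.13 for Kcnip2, the direction opposite to that of its relative Kcnip3.

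**Figure D4:**
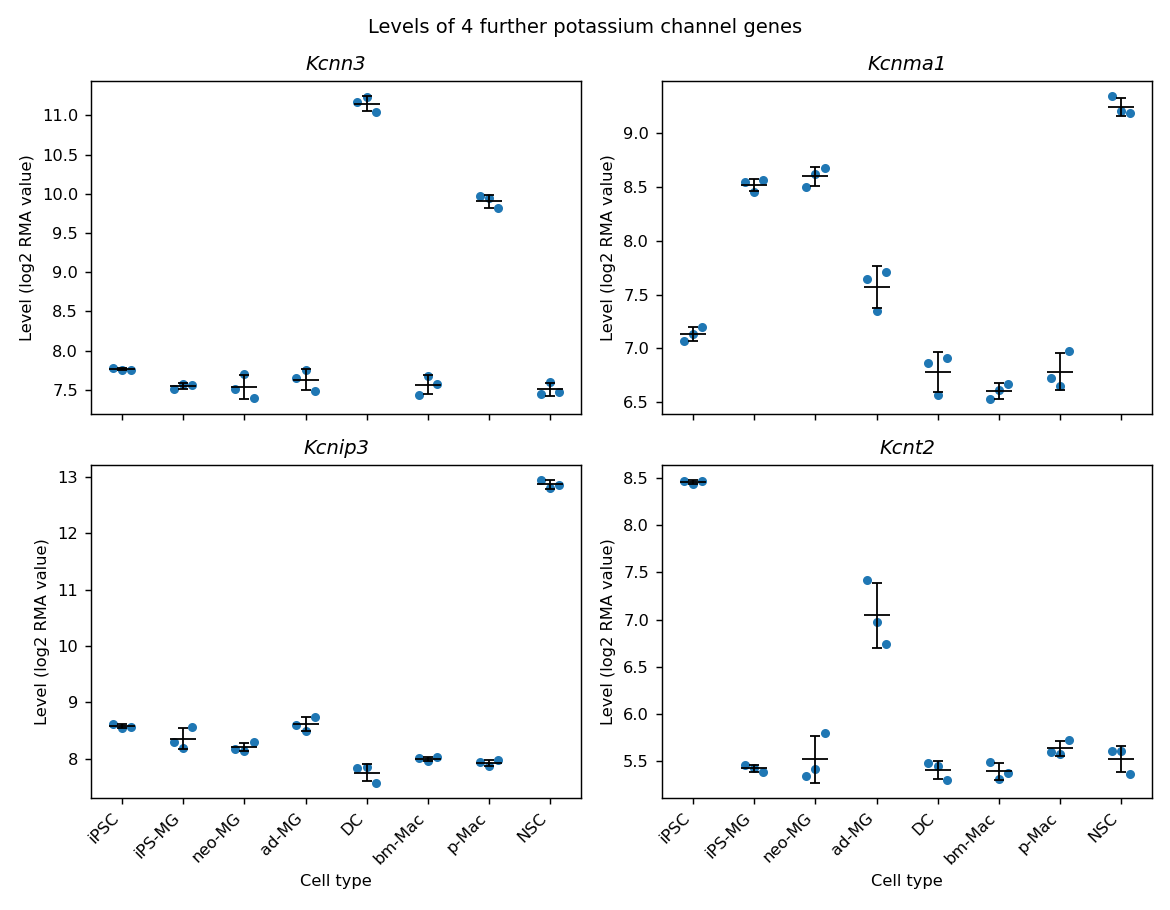
Levels of Kcnn3, Kcnma1, Kcnip3 and Kcnt2 (log2 RMA value, vertical axes differ) in the 8 cell types. Dots are arrays, long bars group means and error bars the SD over 3 arrays. Kcnn3 is raised in DC and p-Mac, Kcnma1 in NSC and in the iPS-MG and neo-MG groups, Kcnip3 in NSC, and Kcnt2 in iPSC and, less, in ad-MG.

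The 10 comparisons between groups asked how the channel genes followed each cell identity. A gene was called in a comparison at an adjusted p under 0.05 and a difference of at least 1 log2 unit. Every group enters more than 1 of the comparisons, so these share arrays and their counts are not independent. Between iPS-MG and iPSC 12 of 86 channel genes were called (14%, background 22.2%): Kcnj2, Kcnk13, Kcnk6, Kcnab2, Kcnma1 and Kcnj10 rose and Kcnt2, Kcnk1, Kcnk5, Kcnn2, Kcng3 and Kcnip2 fell. The background was 10.4% of all genes higher and 11.8% lower. Kcnip2 dropped under the minimum without iPSC replicate 2, iPSC replicate 3 or iPS-MG replicate 2, which left 11. The rises thus took in inward rectifiers, 2-pore channels, BK and a Kv1 beta subunit, while Kcna3 and Kcnn4 did not pass (0.44 and 0.18).

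Between iPS-MG and neo-MG no channel gene was called, against a background of 0.0266%, and none passed limma's Benjamini-Hochberg adjusted p of 0.05 alone (background 0.213%). At an unadjusted p under 0.05, 5 channel genes passed (Kcnk18, Kcne1, Kcnf1, Kcne4 and Kcnq5), as did 1225 of all genes. All 86 differences lay between -0.21 and 0.19. The 95% interval of the difference was -0.13 to 0.23 for Kcnj2, -0.15 to 0.19 for Kcna3, -0.06 to 0.25 for Kcnn4 and -0.22 to 0.17 for Kcnk13. Over the 86 genes the root mean square difference between the group means was 0.0828, against 0.0962 over all genes.

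Adult microglia differed from both other microglial groups in few channel genes. Against ad-MG, iPS-MG was lower in 3 (background 4.28%) and higher in none (background 1.20%), for 5.48% of all genes in either direction. The neo-MG group was lower in 3 (background 4.43%) and higher in 1 (background 1.28%), for 5.71% of all genes. Kcnt2, Kcnj15 and Kcna3 were the genes lower in each case, and Kcnma1 the one higher in neo-MG. These comparisons share the ad-MG arrays. For iPS-MG against ad-MG the differences were -1.62 ± 0.12 for Kcnt2, -1.28 ± 0.068 for Kcnj15 and -1.14 ± 0.081 for Kcna3, and Kcnma1 reached 0.95, just under the minimum, which it passed without ad-MG replicate 3. The auxiliary subunits Kcne4 and Kcnab1 came next for neo-MG against ad-MG, at -0.68 ± 0.086 and -0.73 ± 0.076 (limma, Benjamini-Hochberg adjusted p = 3.16e-07 and 1.38e-08). The ad-MG arrays also carried the fibroblast and mural genes given above. Of 4 pituitary hormone genes Prl read 11.11 in ad-MG and 5.85 to 6.44 elsewhere, while Gh, Pomc and Cga read 7.50, 7.46 and 6.24 in ad-MG and 7.40 to 7.93, 7.34 to 7.75 and 6.28 to 6.75 elsewhere. The part of these lists was not tested.

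Among the mature myeloid cells, 5 channel genes were called between neo-MG and bm-Mac (5.81%, background 5.23%), Kcnma1 higher (background 2.10%) and Kcnn4, Kcnab2, Kcna3 and Kcnj5 lower (background 3.12%). With each array centred on its median this count was 3, 1 higher and 2 lower, since Kcna3 (-0.96) and Kcnj5 (-0.92) fell under the minimum, and Kcnj5 did so too without neo-MG replicate 2 (-0.99). Between p-Mac and bm-Mac 3 were called (3.49%, background 6.17%), Kcnn3 higher (background 1.73%) and Kcnn4 and Kcnj10 lower (background 4.44%). Without bm-Mac replicate 2, bm-Mac replicate 3 or p-Mac replicate 1, Kcnj10 dropped under the minimum (-0.97, -0.99 and -0.94) and 2 remained called. Between DC and bm-Mac 5 were called (5.81%, background 8.08%), Kcnn3 and Kcna3 higher (background 3.41%) and Kcnj2, Kcnj10 and Kcnj5 lower (background 4.67%). All 3 lower genes encode inward rectifiers. Kcna2 was added to the calls without DC replicate 1 or bm-Mac replicate 1. Between primary microglia and the other myeloid cells 4 were called (4.65%, background 5.27%), Kcnma1 higher (background 3.20%) and Kcnn4 (-3.37 ± 0.048), Kcnn3 (-1.96 ± 0.051) and Kcnab2 lower (background 2.07%). For Kcnn3 the arrays of the 2 sides overlapped, since bm-Mac read at the microglial level.

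The comparisons with NSC called most. Between NSC and iPSC 13 channel genes were called (15.1%, background 17.2%), 8 higher (background 7.25%) and 5 lower (background 9.97%) in NSC. The higher ones were Kcnip3, Kcnj16, Kcnd2, Kcnc1, Kcnv1, Kcnma1 (2.11), Kcnq5 and Kcnab2 (1.02), and the lower ones Kcnt2 (-2.94 ± 0.12), Kcnk6, Kcnk1 (-1.83), Kcnk5 (-1.28) and Kcnip2. Kcnab2 dropped under the minimum without iPSC replicate 1, iPSC replicate 2 or NSC replicate 2, which left 12. Between the mean of the 6 myeloid groups and NSC 14 were called (16.3%, background 19.6%), 6 higher (background 10.6%) and 8 lower (background 9.04%) in myeloid cells. The higher ones were Kcnk6, Kcnj2, Kcnk13, Kcnn4 (1.87), Kcna3 (1.25) and Kcnn3 (1.05), with overlapping arrays for Kcnn4 and Kcnn3. The lower ones were led by Kcnip3 at -4.73 ± 0.064, 26.5-fold (limma, Benjamini-Hochberg adjusted p = 4.39e-28), Kcnj16 (-3.50), Kcnd2 (-3.13), Kcnc1 (-2.59) and Kcnv1 (-2.31).

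Smaller differences were frequent. At limma's Benjamini-Hochberg adjusted p under 0.05 with no minimum size, 39 of the 86 channel genes passed between iPS-MG and iPSC (background 64.5%), 25 between iPS-MG and ad-MG (42.3%) and 27 between neo-MG and ad-MG (44.3%). Among the mature myeloid cells 18 passed between neo-MG and bm-Mac (41.3%), 51 between p-Mac and bm-Mac (64.2%), 17 between DC and bm-Mac (46.6%) and 62 between primary microglia and the other myeloid cells (70.9%). With NSC the counts were 43 against iPSC (65.9%) and 48 against the myeloid mean (69.8%). In each of these the background is the share of all genes at the same threshold. The median size of a difference, without its sign, was smaller for the channel genes than for all genes in every comparison, for example 0.17 against 0.33 between iPS-MG and iPSC.

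**Figure D5:**
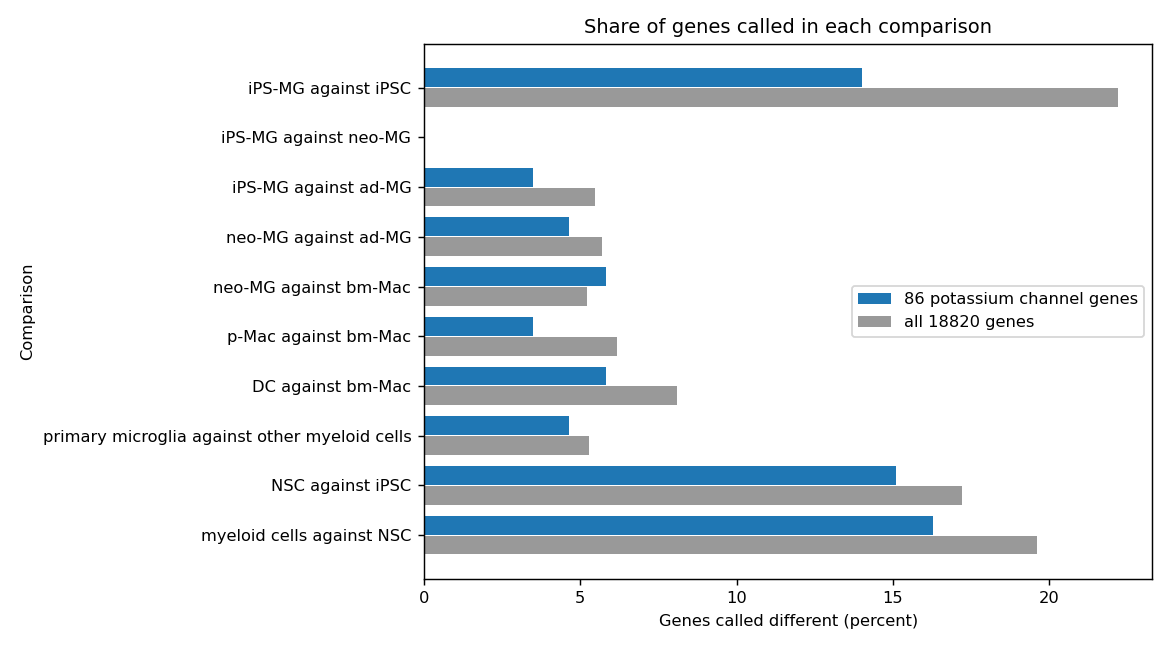
Percent of genes called in each of the 10 comparisons, for the 86 potassium channel genes (blue) and for all 18820 genes (grey), with bars from 0. The blue bar is shorter than the grey one in every comparison but neo-MG against bm-Mac, where 5.81% and 5.23% were called, and in iPS-MG against neo-MG both are too short to see, at 0 and 0.0266%.

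The 62 channel genes that were not called spanned 0.21 to 0.96 log2 units between group means. The widest were Kcne4 (0.96), Kcng1 (0.87), Kcne3 (0.86), Kcnab1 (0.84) and Kcnq3 (0.81). Kcng1 was highest in NSC at 9.53 ± 0.097 (SD, n = 3) against 8.66 to 9.0 elsewhere, Kcne4 and Kcnab1 were highest in ad-MG, and Kcne3 and Kcnq3 in p-Mac. Of the 62, 42 had their highest mean in p-Mac and 58 were higher in p-Mac than in bm-Mac (61.2% of all genes were), 36 of them at limma's Benjamini-Hochberg adjusted p under 0.05 (background 36.6%), with a median difference of 0.23. The p-Mac arrays also had the highest array medians (8.17 to 8.21 of a range of 7.96 to 8.21). With arrays centred on their medians, 53 of the 62 were higher and 13 of them passed (background 19.3%), with a median difference of 0.12. With the same centring, the median p-Mac to bm-Mac difference over all 86 channel genes was 0.07 in place of 0.18, and over all genes it was 0.00 in place of 0.10. Without centring, genes above the median level had a median p-Mac to bm-Mac difference of -0.14, against 0.10 for all genes. Most channel genes were dim, so the shares of all genes given here are not matched for level. The share of all genes was not counted for the 42 or the 53. The genes that did not pass even the adjusted p alone in the F test were Kcnj8, Kcnh7, Kcnk2 and Kcnmb1.

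By levels of the 86 genes alone, the nearest array to a given array was of the same cell type for 21 of 24 arrays. The exceptions were iPS-MG replicates 1 and 3, both nearest to neo-MG replicate 2, and neo-MG replicate 3, nearest to iPS-MG replicate 1. Over all genes the count was 23 of 24, with iPS-MG replicate 2 nearest to neo-MG replicate 1. The gene whose 8 group means correlated best with those of Kcnj2 was Kcnk13 (r = 0.94), followed by Kcnk6 (0.84) and Kcnj10 (0.83). For Kcnk13 the closest were Kcnj2, Kcnk6 (0.91) and Kcna6 (0.85), for Kcna3 they were Kcnn4 (0.80), Kcnn3 (0.71) and Kcnab2 (0.69), and for Kcnn4 they were Kcnab2 (0.82), Kcna3 and Kcnq1 (0.67). These are Pearson correlations over 8 cell type means of genes measured on the same arrays, and describe likeness only. Kcna6 and Kcnq1 were not called, with group means 0.61 and 0.65 apart at most.

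A second list held 48 genes that work beside potassium channels (pump and cotransporter subunits, sulfonylurea receptors, volume-regulated anion channels, calcium entry channels, ATP-gated channels and the inflammasome), of which 42 were measured and 25 called among the 8 groups (background 47.2%). Between iPS-MG and iPSC 11 rose (background 10.4%) and 1 fell (background 11.8%), with a median difference of 0.26 against 0.02 over all genes. The inflammasome protease gene Casp1 rose by 5.77 ± 0.095, the calcium-permeable channel gene Trpv2 by 4.14 ± 0.080 and the inflammasome sensor gene Nlrp3 by 3.30 ± 0.088, and the sodium pump subunit gene Atp1b1 was the one that fell, at -3.46 ± 0.078. None was called between iPS-MG and neo-MG (background 0.0266%). Against ad-MG, neo-MG was higher in 2 of the 42 (Casp1 at 1.66 and the sodium-potassium-chloride cotransporter gene Slc12a2 at 1.07, background 1.28%) and lower in 3 (Atp1b1 at -2.64, Il1b at -2.05 and Lrrc8c, an anion channel subunit gene, at -1.69, background 4.43%). Primary microglia against the other myeloid cells gave 3 higher (Slc12a2 at 2.56, Atp1b1 at 1.97 and Atp1b2 at 1.28, background 3.20%) and 1 lower (Lrrc8c at -1.37, background 2.07%). For Slc12a2, Atp1b1 and Lrrc8c the mean of neo-MG and ad-MG joins unequal levels, by the differences just given. The part of the fibroblast and mural genes of ad-MG in these levels was not tested. For p-Mac against bm-Mac 1 was higher (background 1.73%) and 2 lower (background 4.44%), and for DC against bm-Mac 2 were higher (background 3.41%) and 5 lower (background 4.67%), among them the ATP-gated channel gene P2rx7 at -1.49. In myeloid cells against NSC 9 were higher (background 10.6%) and 4 lower (background 9.04%), led by Casp1 (4.60), Trpv2 (4.12) and Nlrp3 (3.98) on one side and Atp1b2 (-2.71), Atp1b1 (-2.15) and Slc12a2 (-1.90) on the other.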

How the data were processed

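The 24 arrays were analysed from the log2 values the authors deposited, made with RMA (background correction, quantile normalization and summary per probeset) and Partek, per the submitters' processing notes. The chip definition and genome build are not given in the sources used here, and the log base was taken from the range of values (3.14 to 14.43). Of 35556 probesets, 21218 name 1 gene, 1881 several and 12457 none in the platform annotation, and those with 1 gene gave 18820 genes, each by its probeset of highest mean. All 86 channel genes matched RefSeq by gene identifier.

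limma 3.58.1 in R 4.3.3 fitted the 8 group means over all 24 arrays (16 residual degrees of freedom), with p-values adjusted by Benjamini-Hochberg over 18820 genes. The scripts were tested on simulated data. Genes named were the 4 known microglial and macrophage channels, the 12 with the widest range, and up to 5 highest and 5 lowest called in each comparison, and Kcnd3, Kcnh8, Kcne4, Kcnab1 and the other uncalled genes named were picked after their values were seen. The members and lists were chosen with earlier results of these data known. With 3 arrays a group their number limits the precision.

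Alternatives were array centring, a second quantile normalization, a trended variance, the replicate number as a block, fits of the compared groups alone, the mean of probesets, a level filter, no 2-fold minimum and each array left out. Replicate numbers were not taken to pair the arrays. Of 84 same-numbered pairs, 15 correlated above 0.1 (r from -0.26 to 0.25), and no pair of groups did so throughout. The replicate 3 arrays of iPSC, iPS-MG, neo-MG, ad-MG and DC correlated with each other at 0.16 to 0.25, except iPS-MG with DC (-0.006). Whether arrays of the same number share an origin is not stated.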

Additional observations from a re-analysis of the deposited data

How the results depend on the processing

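Counts of called channel genes are given in the order F test over 8 groups, iPS-MG against iPSC, iPS-MG against ad-MG, neo-MG against ad-MG, neo-MG against bm-Mac, p-Mac against bm-Mac, DC against bm-Mac, primary microglia against other myeloid cells, NSC against iPSC, and myeloid cells against NSC. The reported counts were 24, 12, 3, 4, 5, 3, 5, 4, 13 and 14. Without the 2-fold minimum they were 82, 39, 25, 27, 18, 51, 17, 62, 43 and 48. Among the 10 channel genes whose mean lay above the median of all genes they were 6, 3, 1, 1, 3, 1, 1, 2, 3 and 5, since that filter leaves few genes to test. Centring each array on its median, or a second quantile normalization, gave 3 for neo-MG against bm-Mac, 11 for iPS-MG against iPSC (Kcnip2 lost) and 4 for iPS-MG against ad-MG (Kcnma1 gained, so 1 higher and 3 lower). Centring moved the median of all genes by over 0.1 for p-Mac (0.10 to 0.00), DC (-0.02 to 0.10) and neo-MG (-0.03 to 0.07) against bm-Mac, and for DC the calls over all genes went from 641 higher and 879 lower to 814 and 740, while the channel genes stayed at 2 and 3. Leaving out each array in turn gave, in the same order, 24 to 25, 11 to 12, 3 to 4, 3 to 4, 4 to 5, 2 to 3, 5 to 6, 4, 12 to 13 and 14. The count between iPS-MG and neo-MG was 0 under every setting run. With the replicate number as a block all counts were as reported, but this cannot decide whether the arrays are paired. Each number occurs once in each group, so the block leaves the differences between groups unchanged. The 2-fold minimum then leaves the counts little room to move. The mean of probesets, or the other probeset of Kcnd3 and Kcnh8 (chosen after the data were seen), added Kcnd3 to 3 counts, making 25, 14 and 15 for the F test, NSC against iPSC and myeloid cells against NSC. Of 2598 values of 80 named results under alternatives, 10 fell under the threshold and 12 passed it. No value called in the main or the alternative fit changed sign between them. Sign changes of values called in neither, which lie near no difference in some comparisons, were not counted. Array signal near background limits what can be seen for dim genes, and a background level per array was not used here.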
